A study of Homo sapiens with 6 samples.

Results

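RNA-Seq data were examined for 36 genes of the S100, small proline-rich (SPRR) and cornified envelope families, chosen by gene symbol among the 58735 genes of a deposited count table. They comprise 13 S100 calcium-binding proteins, 6 SPRR proteins, 8 envelope precursor and scaffold genes (IVL, EVPL, PPL, CSTA, CNFN, LOR, FLG and CALML5), 4 transglutaminases (TGM1, TGM2, TGM3 and TGM5) and 5 kallikrein proteases (KLK5, KLK6, KLK7, KLK10 and KLK11). All 36 symbols were found in the table, each on 1 row. The cells were MCF10A, an established nonmalignant human breast epithelial line, grown with horse serum, insulin, epidermal growth factor, cholera toxin and hydrocortisone. For 3 libraries the cells had received a nontargeting siRNA pool (siControl, labeled WT) and for 3 libraries siRNA against DAB2IP (siDAB2IP, labeled DAB2IP knockdown), and RNA was taken 48 hours after transfection in both groups. DAB2IP encodes a Ras GTPase-activating protein, and the comparison asked which genes differed when its transcript was reduced by transient siRNA in a single cell line. Nothing states that the 3 libraries of a group came from separate cultures, so p-values measure the spread between these libraries, which may be technical.

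The cornified envelope is the cross-linked protein shell that replaces the plasma membrane of a keratinocyte at the end of its life. Periplakin, envoplakin and involucrin are laid down first on the inner side of the membrane, and transglutaminases then cross-link loricrin and SPRR proteins onto this scaffold. Many of these genes, together with most S100 genes, lie side by side in the epidermal differentiation complex on chromosome 1q21. S100 proteins are small calcium-binding proteins that act as dimers inside the cell and, in several cases, as secreted danger signals, and the kallikreins are secreted serine proteases that in skin cut the junctions between dead cells. MCF10A cells are of breast and not of epidermal origin, but such basal-type epithelial lines are known to express parts of this program.

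In the count table, which uses GRCh38 coordinates, 21 of the 36 genes lay on chromosome 1 between 152032506 and 153631360. The 5 kallikreins and CNFN lay on chromosome 19, TGM2 and TGM3 on chromosome 20, and 1 gene each on chromosomes 3, 4, 10, 14, 15, 16 and 17. S100A9 (153357854 to 153361027, plus strand) and S100A8 (153390032 to 153391188, minus strand), the subunits of calprotectin, are neighbors. Between them the table lists S100A12 and the pseudogene LAPTM4BP1, which had no counts.

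RefSeq promoter sequences on GRCh38.p14 were available for 28 of the 36 genes, in 38 windows since some genes have several start sites. PPL, EVPL, CSTA, TGM1, SPRR2D, LOR, TGM2 and SPRR2E had no entry. The sequences below were chosen because they belong to S100A9 and S100A8, 2 neighbors with lower levels in siDAB2IP, to SPRR3 and S100A3, which rose, and to SPRR1B, an SPRR gene that did not pass the test. Each is written 5′ to 3′ on the strand of its gene from 250 bases before the RefSeq start site to the last base before the first annotated exon. Capitals mark letters that match 1 of 4 motifs on either strand, namely AP-1 (TGANTCA), C/EBP (TTNNGNAA), the TATA box (TATAAA) and the κB motif.
S100A9, chr1:153357604-153357853, plus strand: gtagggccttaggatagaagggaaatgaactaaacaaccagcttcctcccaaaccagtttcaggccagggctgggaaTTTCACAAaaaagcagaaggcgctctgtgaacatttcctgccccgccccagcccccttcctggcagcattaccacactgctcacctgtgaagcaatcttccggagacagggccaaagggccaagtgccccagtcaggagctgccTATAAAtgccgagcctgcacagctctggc
S100A8, outermost of its start sites, chr1:153391189-153391438, minus strand: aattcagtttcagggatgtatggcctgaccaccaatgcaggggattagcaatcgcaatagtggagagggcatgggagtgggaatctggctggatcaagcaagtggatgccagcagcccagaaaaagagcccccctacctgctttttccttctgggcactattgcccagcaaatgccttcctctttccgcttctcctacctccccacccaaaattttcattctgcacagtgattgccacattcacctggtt
SPRR3, chr1:153001499-153001746, plus strand: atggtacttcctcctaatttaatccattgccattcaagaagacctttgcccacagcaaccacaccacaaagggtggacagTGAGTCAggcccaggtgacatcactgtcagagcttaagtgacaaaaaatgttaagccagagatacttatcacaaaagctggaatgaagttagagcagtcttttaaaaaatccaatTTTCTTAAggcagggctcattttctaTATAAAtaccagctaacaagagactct
SPRR1B, chr1:153030953-153031201, plus strand: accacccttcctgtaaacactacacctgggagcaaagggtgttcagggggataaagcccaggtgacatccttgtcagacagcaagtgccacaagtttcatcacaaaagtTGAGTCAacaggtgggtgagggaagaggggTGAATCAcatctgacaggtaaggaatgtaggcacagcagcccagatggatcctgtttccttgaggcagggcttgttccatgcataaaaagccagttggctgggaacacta
S100A3, chr1:153549373-153549508, minus strand: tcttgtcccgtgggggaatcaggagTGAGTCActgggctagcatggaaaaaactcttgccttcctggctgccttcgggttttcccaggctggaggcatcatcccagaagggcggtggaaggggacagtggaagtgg

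The S100A9 sequence holds a C/EBP match at 173 and a TATA box at 29 bases before the start site, and no AP-1 match. No complete match lies in the S100A8 sequence printed, which precedes the most upstream of 3 RefSeq start sites of that gene (position 153391188), and a C/EBP match runs across that site. The window of the start site at 153391073 holds a TATA box at 29 bases and a C/EBP match at 117 bases before it, and that of the start site at 153390976 holds the same TATA box at 126 bases and C/EBP matches at 214 and 78 bases before it. SPRR3 holds an AP-1 match at 170, a C/EBP match at 55 and a TATA box at 29 bases before its start site, whereas SPRR1B holds AP-1 matches at 141 and 111 bases and no TATA box of these exact letters. The AP-1 letters of S100A3 lie 225 bases before its start site. Over whole windows of 300 bases, which run a short way past the start site, the AP-1 letters were found in 9 of the 28 genes (32.1%), against 9.37% of all 27303 genes with a promoter entry. These 9 are FLG, IVL, S100A2, S100A3, S100A12 and all 4 SPRR genes with an entry (SPRR1A, SPRR1B, SPRR2A and SPRR3). The TATA box letters were found in 13 of the 28 genes (46.4%) against 14% of all genes. The C/EBP letters were found in 14 of the 28 (against 41.8% of all genes) and the κB motif in 5 (17.9%, against 13.3% of all genes), which were CALML5, CNFN, KLK7, KLK10 and S100A14. By window rather than by gene, the AP-1 letters were in 23.7% of the 38 windows and in 7.71% of all 35114. A match describes the letters of a window and not the binding of a factor.

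Each library held between 16353783 and 21916062 counts, and a gene at 0 in a library was below a limit of 0.139 to 0.187 CPM (counts scaled to the library total), which covers counting error only. The library totals were adjusted with the trimmed mean of M values (TMM), and the fit compares siDAB2IP with siControl by the quasi-likelihood test of edgeR, with p adjusted by Benjamini-Hochberg over the 15430 genes that passed its filter on low counts. DAB2IP itself was at 103, 94.1 and 77.3 CPM in siControl libraries 1 to 3 and at 27.4, 25.5 and 22.3 CPM in siDAB2IP libraries 1 to 3. This is a 3.64-fold lower level (log2 fold change −1.86, SE 0.13, adjusted p = 9.71e-05, edgeR). Among all genes tested, 6.55% rose and 7.65% fell at an adjusted p under 0.05, and the median log2 fold change was 0.01. The libraries numbered 3 stood apart from the other 4 on the second principal component, which held 19.7% of the variance after 55.3% on the first. On the first, siDAB2IP library 3 also stood apart from its own group, at 45.7 against 16.1 and 17.2. The siControl libraries lay there at −27.0, −27.2 and −24.7. Mitochondrial genes took 9.59% to 12.8% of the counts, with the highest share in siDAB2IP library 3. Where leaving out 1 or both libraries numbered 3 changed the call of 1 of the 36 genes, a value from such a fit is given.

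Levels of different genes were compared in FPKM, the deposited values per gene length. In siControl the 36 genes spanned from S100A9, at 778 ± 194 FPKM (SD, n = 3), to LOR, which had no counts in any library. 7 genes, all S100 genes, were at a mean of at least 100 FPKM, 13 were between 10 and 100, 6 were between 1 and 10, and 10 were under 1. S100A6 (calcyclin) followed S100A9 at 697 ± 113 FPKM (SD, n = 3), and their ranges overlapped. Then came S100A11 at 393 ± 23.7, S100A14 at 341 ± 109, S100A2 at 238 ± 15.6, S100A16 at 218 ± 26.7 and S100A8 at 201 ± 48.5 FPKM (SD, n = 3), and in this run each gene's range overlapped that of the next. The range of S100A6 lay wholly above that of S100A11, and that of S100A8 wholly above that of CSTA, the next gene in order.

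Below the S100 genes, the protease inhibitor CSTA (cystatin A) was at 54.6 ± 9.29, the cross-bridging protein SPRR1B at 53.2 ± 4.77, the desquamation protease KLK7 at 51.9 ± 19.9 and the scaffold protein PPL (periplakin) at 46.8 ± 6.41 FPKM (SD, n = 3) in siControl, with overlapping ranges. Lower still in siControl, IVL (involucrin) was at 0.920 ± 0.122 FPKM, FLG (filaggrin) at 0.231 ± 0.0265 FPKM and CALML5, a calmodulin-like skin protein, at 0.535 ± 0.539 FPKM (SD, n = 3). In siDAB2IP the order changed at the top. S100A9 was at rank 5 with 277 ± 177 FPKM and S100A8 at rank 9 with 48.3 ± 28.9 FPKM, and S100A6 stood first at 645 ± 143 FPKM (SD, n = 3). S100A3 moved from rank 20 to rank 13, at 30.2 ± 11.8 FPKM (SD, n = 3).

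**Figure D1:**
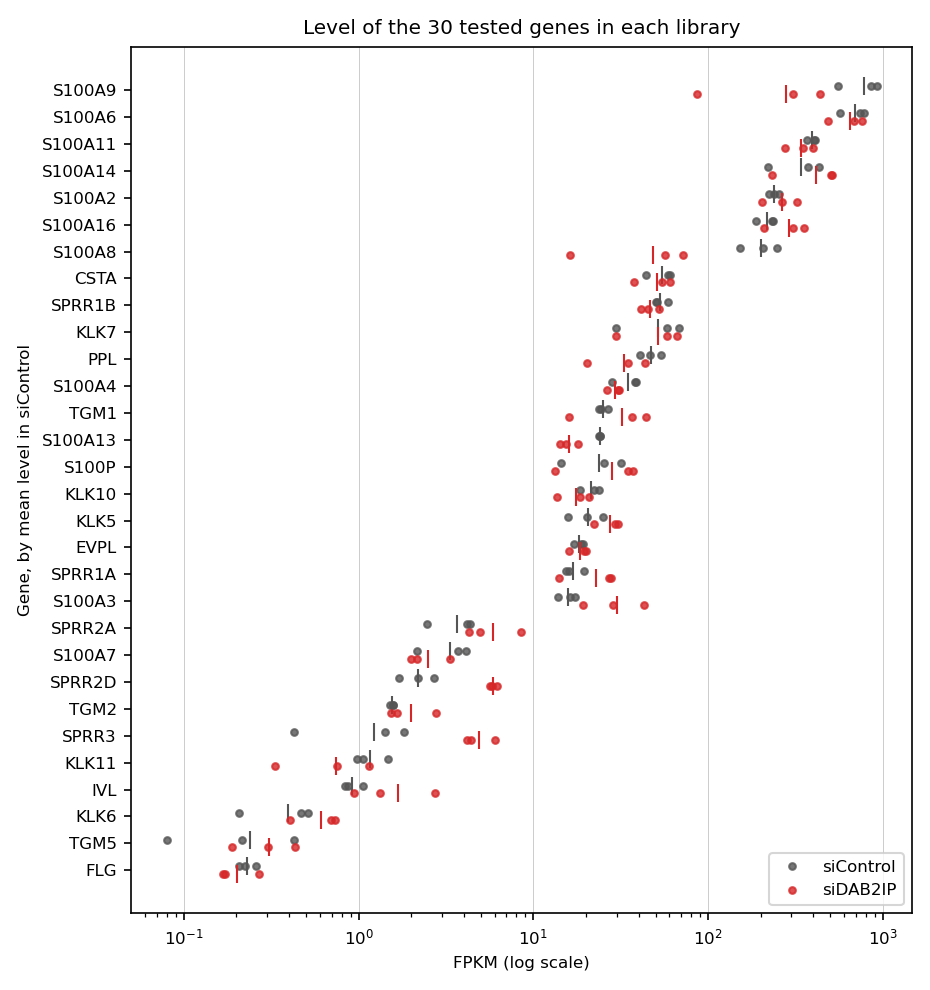
FPKM (horizontal, log scale) of the 30 tested genes in each library, ordered by the siControl mean, with siControl libraries in gray, siDAB2IP libraries in red and the group means as vertical ticks. The red points of S100A8, S100A9 and S100A13 lie wholly to the left of the gray ones, and the points of SPRR2D, SPRR3 and S100A3 lie wholly to the right.

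Of the 36 genes, 30 passed the filter on low counts and were tested, and 6 (S100A12, SPRR2E, CNFN, CALML5, LOR and TGM3) were not. At an adjusted p under 0.05, 3 of the 30 rose with DAB2IP knockdown (SPRR3, SPRR2D and S100A3, or 10.0%, against 6.55% of all genes tested) and 2 fell (S100A8 and S100A13, or 6.67%, against 7.65%). The 16.7% called in either direction stands beside 14.2% of all genes tested. The median log2 fold change of the 30 was 0.08, with 16 above 0 and 14 below. The 2 groups were free of overlap in 6 of the 30 (20.0%), against 35.9% of all genes tested, and the 6 were the 5 genes called and S100A9. By role, the median log2 fold change was −0.16 for 12 S100 genes, 0.69 for 5 SPRR genes, −0.10 for 5 envelope precursors and scaffold genes, 0.37 for 3 transglutaminases and −0.01 for 5 kallikreins. All 5 genes called lay among the 18 tested on chromosome 1 (27.8%). None of the 12 tested elsewhere was called by edgeR, and 1 of them had an unadjusted p under 0.05, as did 30% of all genes tested. With the replicate number as a block in the edgeR fit, 5 rose and 4 fell: S100A16 and KLK5 were added to the genes that rose, and S100A9 and PPL to those that fell, beside 9.59% of all genes up and 11.4% down. DESeq2 called the same 5 genes as the fit without the block. In bulk RNA, fewer cells that express a gene and less RNA per cell cannot be told apart.

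**Figure D2:**
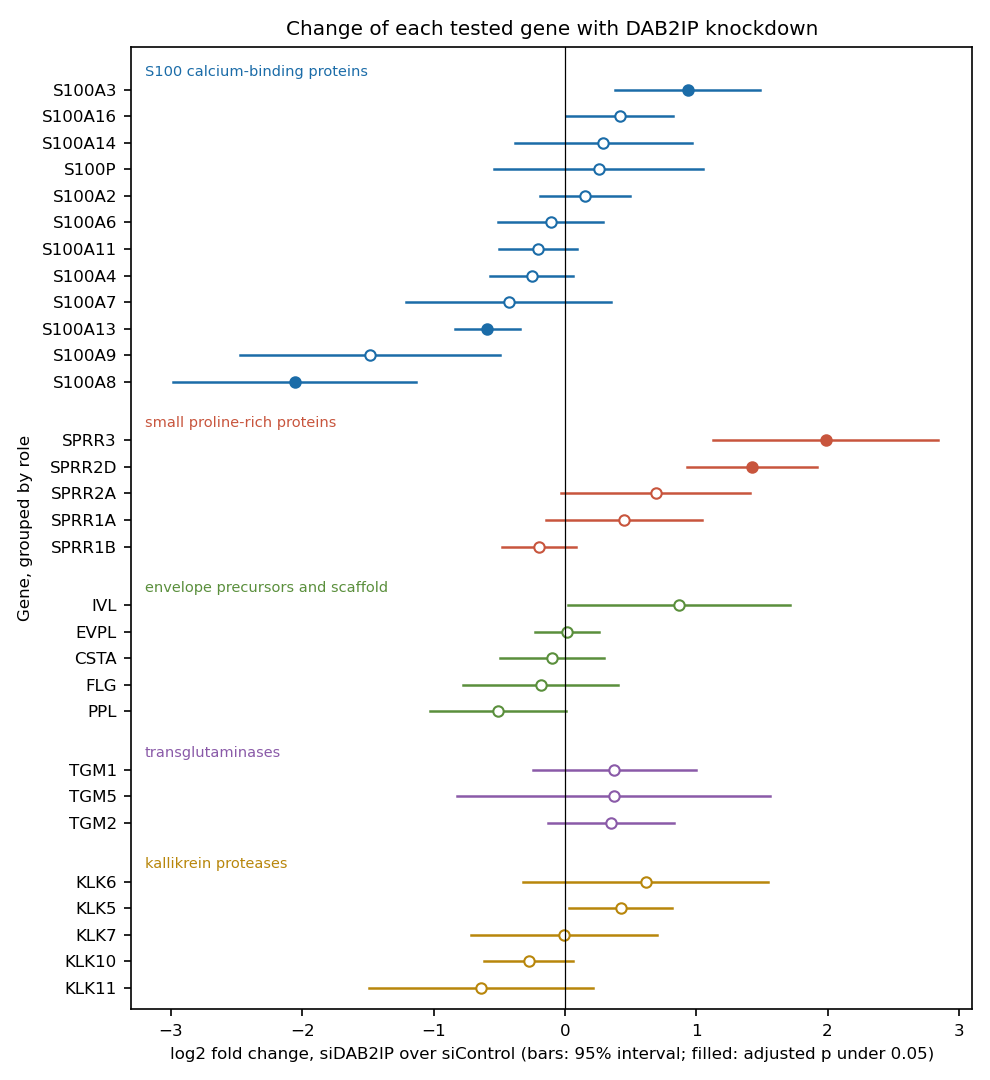
Log2 fold change of siDAB2IP over siControl (horizontal) with its 95% interval for each tested gene, grouped and colored by role, with filled points at an adjusted p under 0.05. The 5 filled points are S100A3, S100A13, S100A8, SPRR3 and SPRR2D, and the points of the transglutaminases and kallikreins are all open.

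Calprotectin is the dimer of S100A8 and S100A9, best known from neutrophils and also made by stressed or inflamed epithelium. S100A8 was at 252, 207 and 154 CPM in siControl libraries 1 to 3 and at 73.2, 57.4 and 16.5 CPM in siDAB2IP libraries 1 to 3. Every siDAB2IP library was below every siControl library, and library 3 was the lowest of each group. The level was 4.16-fold lower (log2 fold change −2.06, SE 0.42, 95% interval −2.98 to −1.13, adjusted p = 0.0121, edgeR). It was the largest fold change downward among the 30 genes. With the replicate block the log2 fold change was −2.24 (adjusted p = 0.000802, edgeR), without siDAB2IP library 3 it was −1.64 (adjusted p = 0.000202), and without library 3 of both groups it was −1.81 (adjusted p = 1.88e-06). The call held in all 6 edgeR fits that left out a library and was lost in limma on log2(FPKM + 1) with no minimum FPKM, at an adjusted p of 0.116.

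S100A9 was at 536, 497 and 324 CPM in siControl libraries 1 to 3 and at 255, 179 and 50.7 CPM in siDAB2IP libraries 1 to 3. The groups did not overlap, and within each group the libraries ranked in the same order as for S100A8. The log2 fold change of S100A9 was −1.49 (SE 0.44, 95% interval −2.47 to −0.50), with an adjusted p of 0.0511 that just missed the threshold in edgeR. With the replicate block it was −1.72 and past the threshold (adjusted p = 0.00283, edgeR), as it was without siDAB2IP library 1, at −1.98 (adjusted p = 0.0240), without siDAB2IP library 3, at −1.06 (adjusted p = 0.00430), and without library 3 of both groups, at −1.25 (adjusted p = 5.53e-05). DESeq2 gave an adjusted p of 0.107, and RLE scaling, library-size scaling and a filter of at least 10 counts gave 0.0498, 0.0484 and 0.0471 in edgeR. All 3 pairs of the same replicate number were lower in siDAB2IP, with log2 CPM differences of −1.07, −1.47 and −2.66, where those of S100A8 were −1.78, −1.84 and −3.18.

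S100A8 and S100A9 together made up 24.0%, 22.3% and 20.2% of the summed CPM of the 13 S100 genes in siControl libraries 1 to 3. In siDAB2IP libraries 1 to 3 they made up 11%, 7.47% and 3.65%, so that the groups did not overlap. The sum of the other S100 genes was 2488, 2458 and 1880 CPM in siControl and 2651, 2930 and 1771 CPM in siDAB2IP, and here the groups overlapped. The ratio of S100A9 to S100A8 in FPKM was 3.86 ± 0.28 (SD, n = 3) in siControl and 5.62 ± 0.39 (SD, n = 3) in siDAB2IP. Each siDAB2IP library (6.06, 5.44 and 5.35) exceeded each siControl library (3.71, 4.18 and 3.68). With 3 libraries a group, an exact two-sided permutation test can reach no p below 0.1. S100A12, the gene between them and a ligand of the receptor RAGE, had 8, 6 and 5 counts in siControl and 1, 0 and 7 counts in siDAB2IP and was not tested.

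S100A13, which takes part in the release of growth factors that lack a signal peptide, was at 53.0, 53.9 and 53.9 CPM in siControl and at 34.4, 40.5 and 32.0 CPM in siDAB2IP. The siControl libraries were nearly alike and all siDAB2IP libraries lay below them. Its log2 fold change was −0.59 (SE 0.11, adjusted p = 0.00877, edgeR), and the call held in all 6 edgeR fits that left out a library and was lost in limma on log2(FPKM + 1) with no minimum FPKM, at an adjusted p of 0.0530. The exons of S100A13 share 10.6% of their bases with S100A1 on the opposite strand and 24.2% with the transcript AL162258.1 on the same strand, and the strand used in counting is not given in the sources used here. S100A1 was at 7.80 CPM in siControl and 7.99 CPM in siDAB2IP (log2 fold change 0.04), and AL162258.1 was at 0.0777 and 0.0184 CPM.

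S100A3, a cysteine-rich S100 protein known from the hair cuticle, was at 16.7, 13.4 and 15.6 CPM in siControl and at 27.4, 18.6 and 41.3 CPM in siDAB2IP. All siDAB2IP libraries were higher, with a wide spread among them. Its log2 fold change was 0.93 (SE 0.25, adjusted p = 0.0338, edgeR). The call was lost without siControl library 1, 2 or 3 or siDAB2IP library 1, at adjusted p between 0.0567 and 0.141, and in the limma fits on FPKM, at 0.0792 to 0.214. Without siDAB2IP library 3, the highest, the log2 fold change was 0.60 (adjusted p = 0.0339), and with the block it was 0.87 (adjusted p = 0.0101, edgeR). Its neighbors S100A4, which binds nonmuscle myosin, and S100A2, a p53-family target of basal epithelium, had log2 fold changes of −0.25 (adjusted p = 0.264) and 0.15 (adjusted p = 0.561).

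Among the abundant S100 genes, S100A16 was at 399, 400 and 321 CPM in siControl and at 525, 610 and 359 CPM in siDAB2IP. The groups overlapped through siDAB2IP library 3, and the log2 fold change was 0.42 (SE 0.18, adjusted p = 0.157, edgeR). It passed with the replicate block (0.39, adjusted p = 0.0345) and without siDAB2IP library 3 (0.61, adjusted p = 0.00539). The edgeR fit without library 3 of both groups also called it up. S100A14 was at 554, 480 and 282 CPM in siControl and at 655, 654 and 301 CPM in siDAB2IP. Library 3 was the lowest of both groups, and the log2 fold change was 0.29 (SE 0.30, adjusted p = 0.567), and 0.34 without library 3 of both groups (adjusted p = 0.0360, edgeR). S100A6 (−0.11), S100A11 (−0.20), S100P (0.26) and S100A7 (psoriasin, −0.43) did not pass the test, and the 95% interval of the log2 fold change ran from −0.51 to 0.29 for S100A6, from −0.50 to 0.09 for S100A11 and from −1.21 to 0.35 for S100A7.

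**Figure D3:**
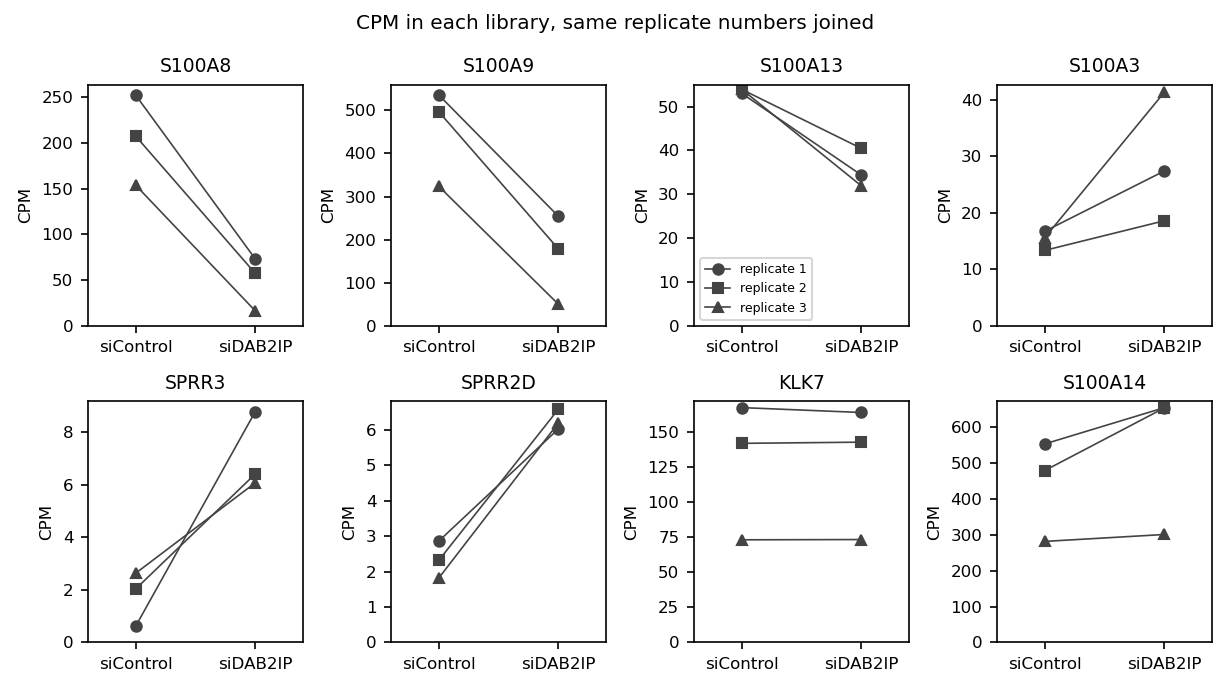
CPM (vertical, from 0) of 8 genes in siControl and siDAB2IP, with a line and a marker shape for each replicate number. The lines of S100A8, S100A9 and S100A13 all fall and those of S100A3, SPRR3 and SPRR2D all rise, whereas KLK7 is nearly level within each number and lowest in replicate 3.

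SPRR proteins are short, proline-rich bridges between other envelope proteins. SPRR3, typical of moist stratified epithelia such as the esophagus, was at 0.622, 2.04 and 2.64 CPM in siControl (10, 44 and 45 counts) and at 8.79, 6.41 and 6.08 CPM in siDAB2IP (156, 116 and 105 counts). All siDAB2IP libraries were higher, and siControl library 1 was the lowest of all 6. The level was 3.96-fold higher (log2 fold change 1.99, SE 0.38, adjusted p = 0.0101, edgeR), the largest rise among the 30 genes. Without siControl library 1 the log2 fold change was 1.58 (adjusted p = 0.0161), and the call held in all 6 such fits but not in limma on log2(FPKM + 1) with no minimum FPKM (adjusted p = 0.0730).

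SPRR2D was at 2.86, 2.32 and 1.82 CPM in siControl and at 6.03, 6.58 and 6.19 CPM in siDAB2IP. The siDAB2IP libraries lay close together and well above the others. Its log2 fold change was 1.43 (SE 0.22, adjusted p = 0.00411, edgeR), and it passed in every fit made at an adjusted p under 0.05. SPRR2A, a near relative, was at 3.11, 2.97 and 1.76 CPM in siControl and at 6.08, 3.54 and 3.07 CPM in siDAB2IP, and its groups overlapped slightly (log2 fold change 0.69, SE 0.32, adjusted p = 0.182). SPRR2E had 6, 5 and 2 counts in siControl and 10, 8 and 17 counts in siDAB2IP, too few to be tested.

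SPRR2 genes share stretches of identical sequence, so reads may be shared or lost between them. Of the 100-base windows in their transcripts, 20.3% in SPRR2A, 11.3% in SPRR2E and 3.74% in SPRR2D also occurred in another gene. The counts of 7 SPRR2 genes were therefore summed as well. This sum came mostly from SPRR2A and SPRR2D and cannot restore reads that were lost. The sum was 6.41, 5.56 and 3.69 CPM in siControl and 12.7, 10.7 and 10.2 CPM in siDAB2IP, without overlap. Its log2 fold change was 1.10 (SE 0.21, 95% interval 0.62 to 1.58, adjusted p = 0.0102, edgeR).

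SPRR1A and SPRR1B, the pair induced early in squamous differentiation, differed in level, at 16.9 ± 2.23 and 53.2 ± 4.77 FPKM (SD, n = 3) in siControl. The annotated SPRR1A gene covers only 270 bases from 152985231, against 620 for SPRR1B, and its RefSeq start site lies at 152984081. Reads outside those 270 bases would not be counted for SPRR1A, so CPM of the pair cannot be compared directly. SPRR1B, the SPRR gene with the highest FPKM, was at 36.7, 31.6 and 31.4 CPM in siControl and at 32.5, 25.9 and 28.5 CPM in siDAB2IP. Its groups overlapped (log2 fold change −0.20, 95% interval −0.48 to 0.08, adjusted p = 0.331, edgeR), and the upper bound lies below the log2 fold changes of SPRR2D and SPRR3. SPRR1A was at 5.29, 4.31 and 4.16 CPM in siControl and at 7.38, 7.58 and 3.82 CPM in siDAB2IP, where library 3 was the lowest of all 6. Its log2 fold change was 0.45 (adjusted p = 0.294), and 0.71 without siDAB2IP library 3 (adjusted p = 0.0287, edgeR).

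None of the 5 tested envelope precursors and scaffold genes was called by edgeR, and 1 of them had an unadjusted p under 0.05. PPL, a plakin that links the envelope to keratin filaments, was at 414, 358 and 315 CPM in siControl and at 338, 269 and 157 CPM in siDAB2IP. Each siDAB2IP library was below its siControl partner of the same number, although the groups overlapped. The log2 fold change was −0.51 (SE 0.23, adjusted p = 0.174), and −0.57 with the replicate block (adjusted p = 0.0204, edgeR). Without siDAB2IP library 3 it was −0.25 (adjusted p = 0.219), and without siDAB2IP library 1 it was −0.77 (adjusted p = 0.0567, edgeR). Its partner EVPL (envoplakin) was at 145, 141 and 130 CPM in siControl and at 151, 147 and 122 CPM in siDAB2IP, with a log2 fold change of 0.01 (95% interval −0.23 to 0.26).

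IVL, the classic precursor of the envelope, was at 2.30, 1.81 and 1.88 CPM in siControl and at 5.97, 2.05 and 2.89 CPM in siDAB2IP. Library 1 of siDAB2IP lay far above the siControl range and library 2 within it, and the log2 fold change was 0.87 (SE 0.38, adjusted p = 0.155, edgeR). Without library 1 of siDAB2IP it was 0.31 (adjusted p = 0.576). CSTA was at −0.10 (adjusted p = 0.758) and FLG at −0.19 (adjusted p = 0.693) on the log2 fold change scale. CNFN (cornifelin) had 4, 10 and 8 counts in siControl and 2, 15 and 16 in siDAB2IP, and CALML5 had 16, 6 and 2 counts in siControl and 9, 2 and 0 in siDAB2IP. LOR, the main protein of the mature epidermal envelope, had 0 counts in all 6 libraries.

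Transglutaminases form the cross-links of the envelope. TGM1, the membrane-bound enzyme of keratinocytes, was at 101, 91.1 and 89.1 CPM in siControl and at 166, 139 and 60.7 CPM in siDAB2IP. In siDAB2IP, libraries 1 and 2 were above all siControl libraries and library 3 was below all of them. The log2 fold change was 0.38 (SE 0.28, adjusted p = 0.409, edgeR), 0.70 without siDAB2IP library 3 (adjusted p = 0.00122) and 0.66 without library 3 of both groups (adjusted p = 0.00146). TGM2, the widely expressed tissue transglutaminase, was at 12.8, 12.7 and 12.3 CPM in siControl and at 12.4, 13.4 and 22.5 CPM in siDAB2IP. Here siDAB2IP library 3 was the highest (log2 fold change 0.35, adjusted p = 0.313), and without it the log2 fold change was 0.03 (adjusted p = 0.906). TGM5 was at 0.37 (adjusted p = 0.692), and TGM3, of hair follicle and late epidermis, had 2 counts in siDAB2IP library 3 and none elsewhere.

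Among the kallikreins, KLK5, which activates KLK7 in skin, was at 41.9, 33.8 and 26.4 CPM in siControl and at 50.6, 49.1 and 37.3 CPM in siDAB2IP. Every siDAB2IP library exceeded its siControl partner, although the groups overlapped. The log2 fold change was 0.42 (SE 0.17, adjusted p = 0.134) and 0.43 with the replicate block (adjusted p = 0.0165, edgeR). It also passed without siDAB2IP library 3 (0.55, adjusted p = 0.0313) and without library 3 of both groups (0.40, adjusted p = 0.0430). KLK7 was at 167, 142 and 73.0 CPM in siControl and at 164, 143 and 73.2 CPM in siDAB2IP, so that same-numbered libraries were nearly equal and the spread lay between the numbers. Its log2 fold change was −0.01 (95% interval −0.72 to 0.70). KLK10 was at −0.28 (adjusted p = 0.262), KLK11 at −0.64 (adjusted p = 0.300) and KLK6 at 0.61 (adjusted p = 0.365) on the log2 fold change scale, and KLK6 reached at most 1.46 CPM.

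For 14 of the 30 tested genes (46.7%), both libraries numbered 3 were below the other 4, against 8.68% of all genes tested. These were S100A2, S100A4, S100A6, S100A14, S100A16, S100P, SPRR1A, EVPL, CSTA, TGM1, TGM5, KLK6, KLK7 and KLK10. For 1 gene, FLG, both were above the other 4 (3.33% against 8.08%). The summed counts of the 36 genes were 0.432%, 0.410% and 0.317% of the counts in siControl libraries 1 to 3 and 0.410%, 0.414% and 0.257% in siDAB2IP libraries 1 to 3. Library 3 thus had the lowest share in each group, and the groups overlapped. Without siDAB2IP library 3 the edgeR fit called 7 of the genes up (adding S100A16, SPRR1A, TGM1 and KLK5) and 3 down (adding S100A9). Without library 3 of both groups it also called 7 up and 3 down, with S100A14 in place of SPRR1A. Those fits test fewer libraries, and what set the libraries numbered 3 apart was not tested.

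**Figure D4:**
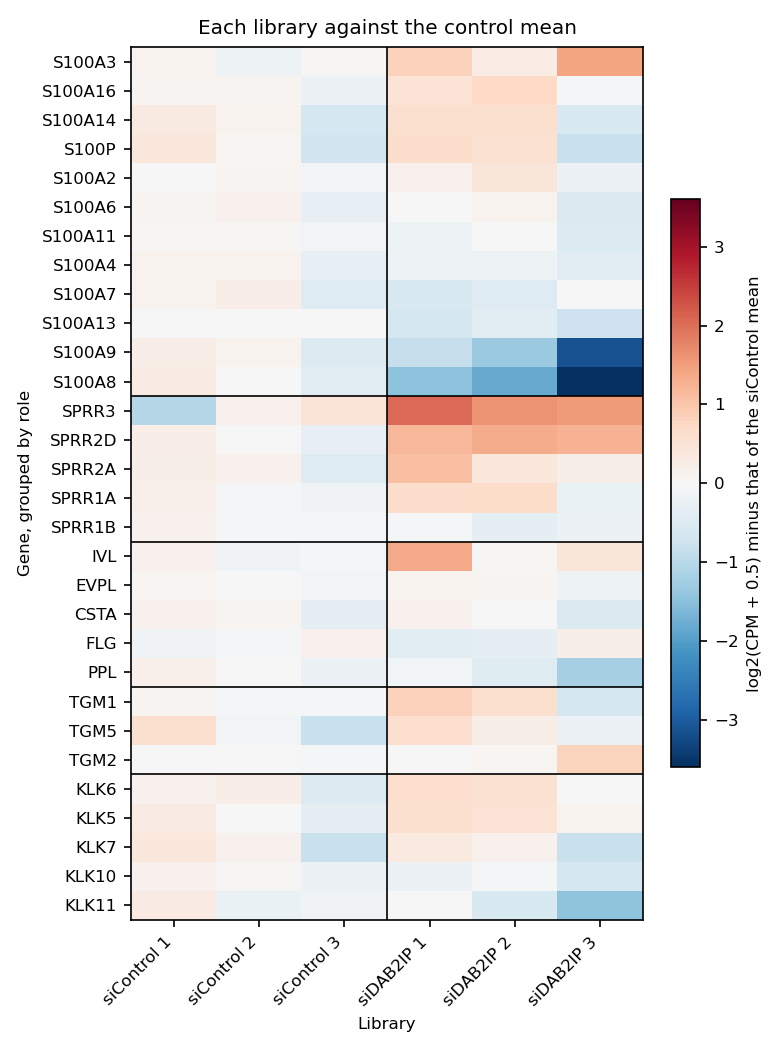
Color gives log2(CPM + 0.5) of each tested gene (rows, grouped by role) in each library (columns), minus that of the siControl mean. S100A8 and S100A9 are blue in all siDAB2IP libraries and darkest in library 3, SPRR3 and SPRR2D are red in all 3, and S100A14, S100P and KLK7 are blue in library 3 of both groups.

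On the map of chromosome 1, rising and falling genes lay next to genes that did not pass. SPRR3 and SPRR2D rose on either side of SPRR1B, which did not pass the test. S100A3, which lies within the annotated span of S100A4 on the same strand, rose, and neither S100A4 nor S100A2 passed. S100A13 fell beside S100A14. S100A8 and S100A9 had the lowest log2 fold changes of the stretch, and their neighbors PGLYRP4 and S100A7 were at −0.27 and −0.43 without passing.

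**Figure D5:**
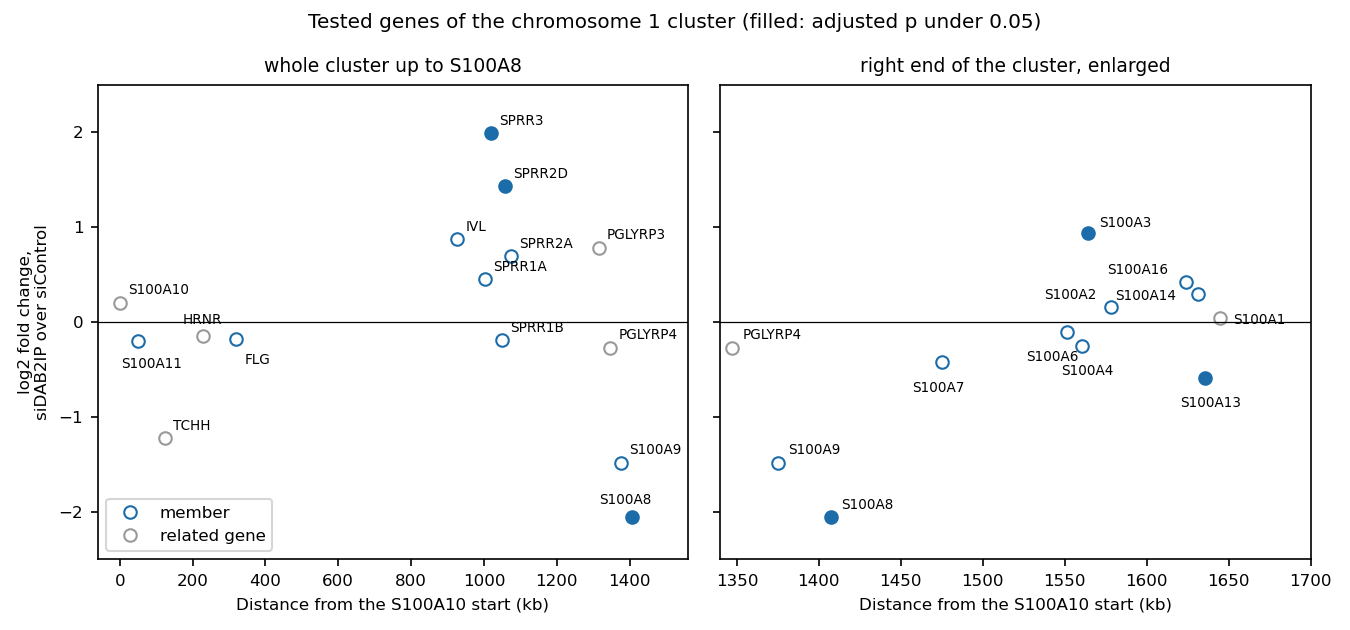
Log2 fold change of siDAB2IP over siControl (vertical) against distance in kb from the start of S100A10 for the tested genes of the chromosome 1 cluster. The left panel runs up to S100A8 and the right panel enlarges the end from PGLYRP4 on, so PGLYRP4, S100A9 and S100A8 appear in both. The 36 chosen genes are in blue, related genes in gray, and points at an adjusted p under 0.05 are filled. Filled points lie above 0 at SPRR3, SPRR2D and S100A3 and below 0 at S100A8 and S100A13, with open points between them.

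A wider set of 128 related genes, listed by function, was read from the same fit. Of these, 73 were tested, 9 rose (12.3%, against 6.55% of all genes tested) and 8 fell (11%, against 7.65%). The median log2 fold change was 0.01. With the replicate block 12 rose (16.4%, against 9.59% of all genes tested) and 15 fell (20.5%, against 11.4%). Without siControl library 2, the library whose absence lowered the counts most, 3 rose and 2 fell. Of 33 other genes of the epidermal differentiation complex only 4 passed the filter on low counts and none of these was called by edgeR, with 1 at an unadjusted p under 0.05. That gene, TCHH (trichohyalin), was at −1.22 on the log2 fold change scale, with an adjusted p of 0.0563 in edgeR, and passed with the replicate block at −1.26 (adjusted p = 0.0330). Of 16 other S100 genes and S100 partners, 11 were tested and none was called, with 4 at an unadjusted p under 0.05, beside 30% of all genes tested. ANXA1, a ligand of S100A11, was closest to the threshold, at 315, 330 and 301 CPM in siControl and 462, 464 and 349 CPM in siDAB2IP (log2 fold change 0.43, adjusted p = 0.0506, edgeR, and 0.0204 with the replicate block). S100PBP, which binds S100P, was at −0.42 (adjusted p = 0.0588, edgeR, and 0.0375 with the replicate block). Of the calprotectin receptors in the list, BSG (basigin) was at 1546 to 1690 CPM over the 6 libraries (log2 fold change 0.03, adjusted p = 0.912, edgeR). AGER, which encodes RAGE, was at 13 to 19.3 CPM (0.24, adjusted p = 0.357, edgeR). TLR4 was at 1.31, 1.67 and 2.70 CPM in siControl and at 1.18, 0.719 and 1.10 CPM in siDAB2IP. Its log2 fold change was −0.91 (SE 0.37, adjusted p = 0.126, edgeR).

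Of 22 genes of the lipid envelope and other transglutaminases, 14 were tested. Of these, 2 rose (14.3%, against 6.55% of all genes tested) and 3 fell (21.4%, against 7.65%). NIPAL4, an ichthyosis gene of the lipid barrier, was at 16.1, 18.4 and 12.8 CPM in siControl and at 3.77, 5.03 and 2.43 CPM in siDAB2IP (log2 fold change −2.07, SE 0.25, edgeR adjusted p = 0.00146). ABHD5, a lipase coactivator, fell by 0.71 and SPTLC2, which starts ceramide synthesis, fell by 0.65 on the log2 scale. SULT2B1, which makes cholesterol sulfate, rose (1.35). Of the 6 edgeR fits that left out a library, NIPAL4 passed in 6, ABHD5 in 5 and SPTLC2 and SULT2B1 in 4. Of 34 other kallikreins, protease inhibitors and processing proteases, 22 were tested, 5 rose (22.7%, against 6.55%) and 1 fell (4.55%, against 7.65%). The protease inhibitors SPINK6 (1.74), SERPINB7 (1.43) and SERPINB2 (1.30) and the proteases PRSS8 (0.84) and CTSD (0.52) rose on the log2 scale, and the inhibitor SERPINB4 was at −1.91. SPINK6 inhibits kallikreins, and PRSS8 is the membrane protease prostasin. In the fits that left out a library, PRSS8 and SERPINB2 passed in 6, SPINK6 in 5, SERPINB7 in 4, CTSD in 3 and SERPINB4 in 1.

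Of 23 transcription factors of terminal epidermal differentiation, 22 were tested. Of these, 2 rose (9.09%, against 6.55% of all genes tested) and 4 fell (18.2%, against 7.65%). FOSL1, a subunit of AP-1, was at 19.5, 18.6 and 23.4 CPM in siControl and at 31.2, 41.9 and 36.2 CPM in siDAB2IP (log2 fold change 0.83, SE 0.14, edgeR adjusted p = 0.00636). GRHL3, a grainyhead factor of the skin barrier, rose by 0.60. CEBPD, which encodes a C/EBP factor, was at 209, 215 and 156 CPM in siControl and at 148, 123 and 74.0 CPM in siDAB2IP (−0.75, SE 0.22). KLF4 (−0.63) and BNC1 (−0.46) also fell. In the fits that left out a library, FOSL1 passed in 6, GRHL3 in 4, CEBPD and KLF4 in 2 and BNC1 in 1.

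Markers of cell types were read beside these genes. Of 8 markers of basal mammary epithelium all were detected, with a summed level of 9996 to 12238 CPM in siControl and 7525 to 8928 CPM in siDAB2IP, and KRT5 (−0.97), KRT14 (−1.52) and KRT17 (−0.54) fell on the log2 scale. Of 11 luminal markers, 5 (KRT19, ESR1, PGR, KIT and ELF5) were under 1 CPM in every library, with sums of 905 to 1053 CPM in siControl and 602 to 799 CPM in siDAB2IP, and MUC1 (−0.82) fell while FOXA1 (1.05) rose. Of 9 markers of suprabasal keratinocytes, 4 (KRT1, KRT2, KRTDAP and DSC1) were under 1 CPM in every library. The sum was 324 to 544 CPM in siControl and 127 to 298 CPM in siDAB2IP, with KRT10 alone at 290 to 513 and 63.3 to 202 CPM. KRT10 (−1.55) and DSG1 (−2.28) fell, and KRT4 (1.59) and KRT13 (1.63), keratins of moist stratified epithelium, rose. DSG1 was low, with 13, 19 and 34 counts in siControl and 4, 1 and 8 counts in siDAB2IP. KRT4 was at 12.3 to 12.9 CPM in siControl and 29.3 to 41.9 CPM in siDAB2IP, and KRT13 at 12.3 to 15.7 and 31.1 to 49.1 CPM. The part of these shifts in the changes of the S100 and SPRR genes was not tested. Of 10 markers of neutrophils and monocytes, the cells with the most calprotectin, 5 (PTPRC, FCGR3B, MPO, LYZ and CYBB) were under 1 CPM in every library. None was called by edgeR (1 at an unadjusted p under 0.05, CSF3R, which passed with the replicate block). The sum was 75.8 to 133 CPM in siControl and 94.0 to 139 CPM in siDAB2IP. It came mostly from CD14 (35.8 to 69.6 and 49.4 to 77.1 CPM) and FPR1 (37.2 to 61.5 and 39.4 to 58.4 CPM). Of 7 fibroblast markers, 4 (COL1A2, COL3A1, PDGFRA and LUM) were under 1 CPM in every library. Their list had sums of 162 to 292 and 146 to 205 CPM, mostly from DCN, at 147 to 274 and 122 to 172 CPM. Of 5 markers of contractile myoepithelial cells, CNN1 was under 1 CPM in every library, with sums of 9.64 to 11.9 and 13.1 to 16.8 CPM. COL1A1 (0.78) and MYLK (1.2) rose in these lists.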

How the data were processed

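RNA-Seq was performed on 6 MCF10A libraries, 3 per group, with library preparation and sequencing by Novogene. The submitters' processing notes name hg38, STAR 2.6.1d, featureCounts 1.5.0-p3, DESeq2 1.20.0 and edgeR 3.24.3. The authors deposited read counts per gene without normalization, and FPKM values, for which the authors normalized counts to gene length and to a scaled library total. Of 58735 genes, 58724 match GENCODE release 29 in start, end and strand. The gene length column entered no test.

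The test used edgeR 4.0.16 in R 4.3.3 (filterByExpr by group, TMM, glmQLFit and glmQLFTest, Benjamini-Hochberg over 15430 genes, called at an adjusted p under 0.05), and the common biological coefficient of variation was 14.8%. SEs come from the F statistic. The scripts were tested on simulated data. Alternatives were DESeq2 1.42.0, RLE and library-size scaling, other filters and thresholds, a replicate block, limma 3.58.1 on log2(FPKM + 1) or log2(FPKM + 0.1), summed SPRR2 counts and leaving out each library. A fit without replicate 3 of both groups was chosen after seeing the data. The 36 genes, the related genes and the marker lists were chosen with earlier results of these data known. Named are DAB2IP, all 36 genes and the called genes of each list (at most 10 by p), with others named after their values were seen. A few called genes of the lists are counted but not reported here by name.

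Both groups carry replicate numbers 1, 2 and 3. After subtraction of group means, same-numbered libraries correlated at 0.30, 0.19 and 0.27 and others at −0.32 to 0.03 across genes. Libraries of 1 number were treated as pairs only in the replicate block and in the differences between same-numbered libraries. The main edgeR fit, which gave the calls, did not use this pairing. What a number stands for is not said in the labels, so this pairing is inferred from the data.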

Additional observations from a re-analysis of the deposited data

How the results depend on the processing

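No result changed direction past the threshold under any alternative, and the DAB2IP call held in all. Of the 36 genes, the number called up and down was 5 and 4 with the replicate block, 7 and 4 with no filter on low counts, 1 and 0 with limma on log2(FPKM + 1) with no minimum FPKM, 1 and 1 at an adjusted p under 0.01, and 2 and 1 at an absolute log2 change of 1 or more. It was 7 up without replicate 3 of both groups, and leaving out 1 library in turn gave 2 to 7 up and 2 to 3 down. The replicate block added S100A16, KLK5, S100A9 and PPL and removed no call. Of 80 alternative values of the 5 called genes, 70 stayed past the threshold and 10 did not. Of 390 values of the 25 others, 24 passed. Of the related genes, the number called up and down was 12 and 15 with the replicate block, 0 and 2 with limma on log2(FPKM + 1) with no minimum FPKM, 3 and 2 at an adjusted p under 0.01 and 4 and 3 at an absolute log2 change of 1 or more. The number down was 15 with no filter, 5 with limma on log2(FPKM + 1) and 4 on log2(FPKM + 0.1), and leaving out 1 library gave 3 to 11 up and 2 to 8 down. Over all genes, limma on log2(FPKM + 0.1) called 659 up and 758 down, limma on log2(FPKM + 1) with no minimum FPKM 176 and 202, an adjusted p under 0.01 254 and 368, an absolute log2 change of 1 or more 236 and 374, and leaving out 1 library 264 to 1172 up and 459 to 1352 down. Some of these settings test fewer genes or libraries, and for the others the cause was not tested. The 6 untested genes had too few counts to pass the filter, and no change in them could be tested at this depth.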
